A study of Sus scrofa with 19 samples.

Results

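The 3 libraries titled RemoLV were set against the 16 other libraries of a series of 19 pig left ventricular (LV) libraries, 1 library per pig. These 3 were chosen because their counts of MYL4, the atrial essential light chain of myosin, were high and those of MYL2, the ventricular regulatory light chain, were low. From them, genes were selected on the same values: a gene counted as above or below when all 3 RemoLV libraries lay outside the range of the 16 in CPM, counts per 1000000 counts of a library. Of 25879 gene identifiers, 13552 passed a filter on low counts, and of these 1108 lay above the range and 1083 below it. Because the same measurements chose the libraries and the genes, differences between RemoLV and the 16 are given as a description with no test.

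All samples came from female large white pigs. The RemoLV pigs had a reperfused myocardial infarction, made by balloon occlusion of the left anterior descending artery for 90 min, and the posterior wall of the LV was taken 6 months later. Hyper pigs (n = 3) were given an aortic stent as juveniles, which became a stenosis of the isthmus as they grew, and their anterior wall was taken at 6 months. Control pigs (n = 3), which the sample labels describe as sham-operated and the methods as untreated animals of the same age, gave the anterior wall at 6 months. DOX pigs (n = 5) received doxorubicin and MYO pigs (n = 5) its liposomal form Myocet, 60 mg/m2 in each of 3 cycles, with the anterior wall taken at 3 months. The data of these 10 pigs came from an earlier study of the same group. Wall position, follow-up time and procedure therefore differ together between the groups. Nothing in the sources used here describes atrial sampling.

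Library totals ran from 9527710 to 20370209 counts, and those of RemoLV from 9527710 to 16098496. The names of the libraries conflict between the deposited files. Each of the 19 expression columns in the deposited table of all samples had a Spearman correlation of 1.0 with 1 count file and of at most 0.992 with any other. In 8 of the 19 the names gave different groups. The 3 count files titled RemoLV match the columns named Control, and the 3 titled Control match those named RemoLV, while 1 DOX and 1 MYO library are exchanged. The comparison of 3 libraries with 16 holds the same libraries under either naming, so RemoLV below means the libraries whose count files carry that title. DOX1 stood apart in the immediate-early gene NR4A1, at 1502 CPM against a median of 59.2 CPM in the 16. NR4A1 and its relative NR4A3 were also below the range in RemoLV, and the cause was not tested.

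Atrial and ventricular heart muscle cells share most of the contractile and calcium-handling machinery but use different myosin light chains, potassium currents and receptors. Atrial identity depends on transcription factors such as NR2F1, NR2F2 and TBX5, and ventricular identity on HEY2, HAND1 and the Iroquois factors IRX3, IRX4 and IRX5. Atrial walls are thinner than ventricular walls and hold proportionally more connective tissue. In a bulk sample, fewer cells of a type and less RNA per cell cannot be told apart.

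The genes above the range were 8.18% of all genes kept, and those below it 7.99%. These shares are the background against which each gene group is read, and since the rule used this contrast nothing is concluded from them. Of the 1108 genes above, 662 differed by at least 2-fold and 77 by at least 8-fold, and of the 1083 below, 365 and 28 did. The median difference of log2(CPM + 0.5) was 0.004 over all genes kept, 1.13 over genes above and -0.75 over genes below. Here and below a difference is the RemoLV mean minus the mean of the DOX, MYO, Hyper and Control means, so that each of these 4 groups has equal weight, and the added 0.5 CPM understates the change of low genes. A symbol was missing for 64 genes above and 48 below. The filter was passed only because RemoLV was included by 136 of the genes above and by 0 of those below, and those 136 had to lie high in RemoLV. With libraries scaled by their total counts alone, the split was 1636 above and 454 below, the median of all genes moved to 0.241, and the median of the sarcomere list lay 0.51 under it and that of the matrix list 0.84 over it.

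The 4 marker genes showed the contrast at full size. MYL4 (ENSSSCG00000017307, chr12:16774655-16792213) measured 8124, 7343 and 6025 CPM in RemoLV1, RemoLV2 and RemoLV3, an order kept in all lists of 3 values below. In the 16 its lowest, median and highest values were 0.55, 4.89 and 21.9 CPM. The RemoLV mean of 7164 ± 1060 CPM (SD, n = 3) was 1310 times the balanced mean of the 16, and the groups did not come near each other. MYL2 (ENSSSCG00000039710, chr14:32205953-32213848) measured 18.6, 115 and 40.0 CPM in RemoLV and 8972, 11960 and 18070 CPM at the lowest, median and highest of the 16. It was 232 times lower in RemoLV, where RemoLV2 held the most of it, so labelled LV tissue of 3 pigs almost lacked the defining ventricular light chain. TNNI1 (ENSSSCG00000024061, chr10:23788279-23800554), the slow skeletal and fetal cardiac troponin I, measured 289, 456 and 501 CPM in RemoLV and at most 10.5 CPM in the 16. ADRA1A (ENSSSCG00000009661, chr14:10623391-10733378), the alpha-1A adrenergic receptor, had 0, 0 and 1 counts in RemoLV and 3.27 to 20.4 CPM in the 16. At this depth ADRA1A was not detectable above 3 counts in any RemoLV library, and no fold is given for it. Positions of genes are those of RefSeq on Sscrofa11.1, the build that the authors also used.

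Per kilobase of annotated exon, light chains can be compared with each other. MYL4 stood at 4000 to 5390 CPM per kb in RemoLV beside 2790 to 4110 for MYL3, the ventricular essential light chain, in the same libraries. In the 16, MYL3 stood at 6060 to 10600 and MYL4 at 0.365 to 14.5 CPM per kb. The essential light chain counted most was thus MYL4 in RemoLV and MYL3 in each of the 16 libraries, and MYL3 was still far from absent in RemoLV.

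**Figure D1:**
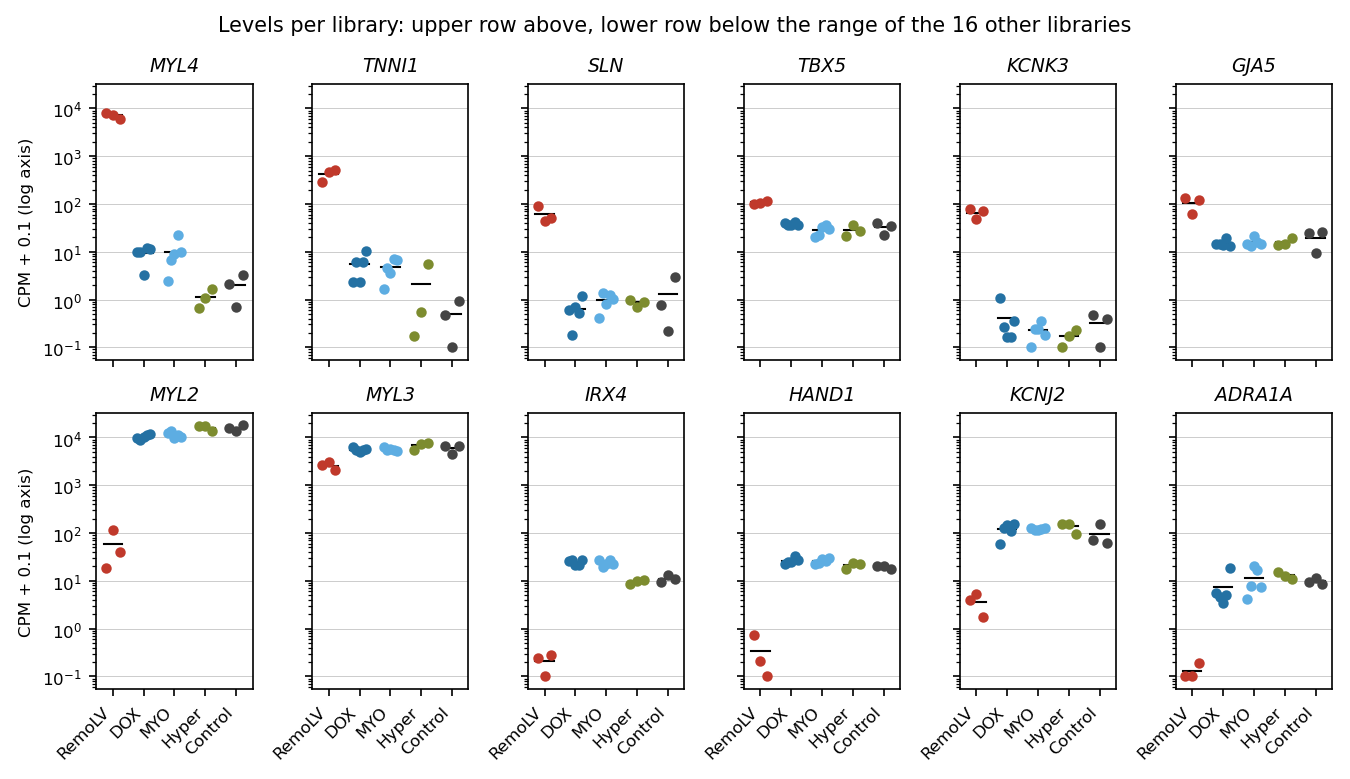
CPM + 0.1 per library on a log axis for 6 genes above (upper row) and 6 below (lower row) the range of the 16 libraries, with 1 point per library and a bar at the group mean. RemoLV (red) lies apart from the DOX, MYO, Hyper and Control libraries in every panel, for example at 6025 to 8124 CPM against at most 21.9 CPM for MYL4.

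The sequence before the start of 3 genes is shown because their levels differ widely between the 2 sets of libraries: the light chain MYL2, the potassium channel KCNK3 and the ventricular factor IRX4. Each line gives the 250 bases that precede the annotated RefSeq start on the strand of the gene, 5′ to 3′. Capitals mark matches to a searched motif.
MYL2: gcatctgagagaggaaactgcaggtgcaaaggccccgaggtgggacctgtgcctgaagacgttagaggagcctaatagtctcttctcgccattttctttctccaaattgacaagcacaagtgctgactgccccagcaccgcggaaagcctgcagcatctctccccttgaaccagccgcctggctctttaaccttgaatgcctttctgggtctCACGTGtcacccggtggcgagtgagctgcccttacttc
KCNK3: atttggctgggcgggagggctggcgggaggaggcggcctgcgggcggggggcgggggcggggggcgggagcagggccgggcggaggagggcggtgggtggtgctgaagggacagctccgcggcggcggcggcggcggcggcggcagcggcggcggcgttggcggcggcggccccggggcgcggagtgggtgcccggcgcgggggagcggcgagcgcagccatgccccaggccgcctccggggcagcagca
IRX4: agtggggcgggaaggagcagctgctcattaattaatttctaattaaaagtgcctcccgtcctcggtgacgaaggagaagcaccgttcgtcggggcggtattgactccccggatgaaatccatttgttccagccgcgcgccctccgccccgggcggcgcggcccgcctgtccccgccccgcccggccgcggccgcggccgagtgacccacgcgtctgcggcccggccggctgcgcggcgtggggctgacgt
The windows lie at chr14:32213849-32214098 for MYL2 and chr3:112359213-112359462 for KCNK3, both on the minus strand, and at chr16:78939783-78940032 on the plus strand for IRX4. Both strands were searched for the T-box motif AGGTGTG, for AGATAA, which GATA4 and its relatives read, for the nuclear receptor site AGGTCA that NR2F factors use, for CACGTG, the E-box of HEY factors, which reads the same on both strands, for the core CTATTTA of MEF2 sites and for the core AAGTGG of NKX2-5 sites. The MYL2 window held 1 match to CACGTG, whereas the other 2 windows held none of these letters. Over the 11806 genes with a symbol and a full window, AAGTGG occurred in 13.1% of all windows, in 13.3% of those of genes above and in 13.1% of those of genes below. CACGTG occurred in 7.47% of all windows, in 6.74% for genes above and in 9.7% for genes below. AGGTCA was in 10.9%, 9.6% and 11.6%, AGATAA in 6.37%, 6.95% and 5.99%, AGGTGTG in 3.33%, 3.47% and 2.99%, and CTATTTA in 1.76%, 2.66% and 1.86%, in the same order. These matches describe the letters of the windows and show no binding.

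Genes known for 1 chamber were counted next. Of 14 kept genes of a textbook atrial list, 12 lay above the range, 1 below it (MYH6, whose identifier is in doubt) and 1 inside it (HEY1), that is 85.7% above beside 8.18% of all genes, and the median difference was 1.93 on the log2 scale. Of the 12, 2 passed the filter only through RemoLV and so had to be high there. Of 11 kept genes of a textbook ventricular list, 0 lay above and 9 below, that is 81.8% beside 7.99%, with a median difference of -4.14, and GJA1 and FHL2 were inside the range. Among 11 genes that heart muscle cells of both chambers use, 1 lay above and 3 below, with a median of -0.15. The atrial and ventricular lists were written with earlier results of these data known, MYL4 and MYL2 among them chose the libraries, and the counts are no independent support for the name atrial-like. MYL7, NPPA and KCNA5 of the atrial list and MYH7 and PLN of the ventricular list matched no gene symbol here. MYBPHL and BMP10, both atrial, did not pass the filter: MYBPHL reached 0.445 CPM and BMP10 0.169 CPM at most in RemoLV.

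**Figure D2:**
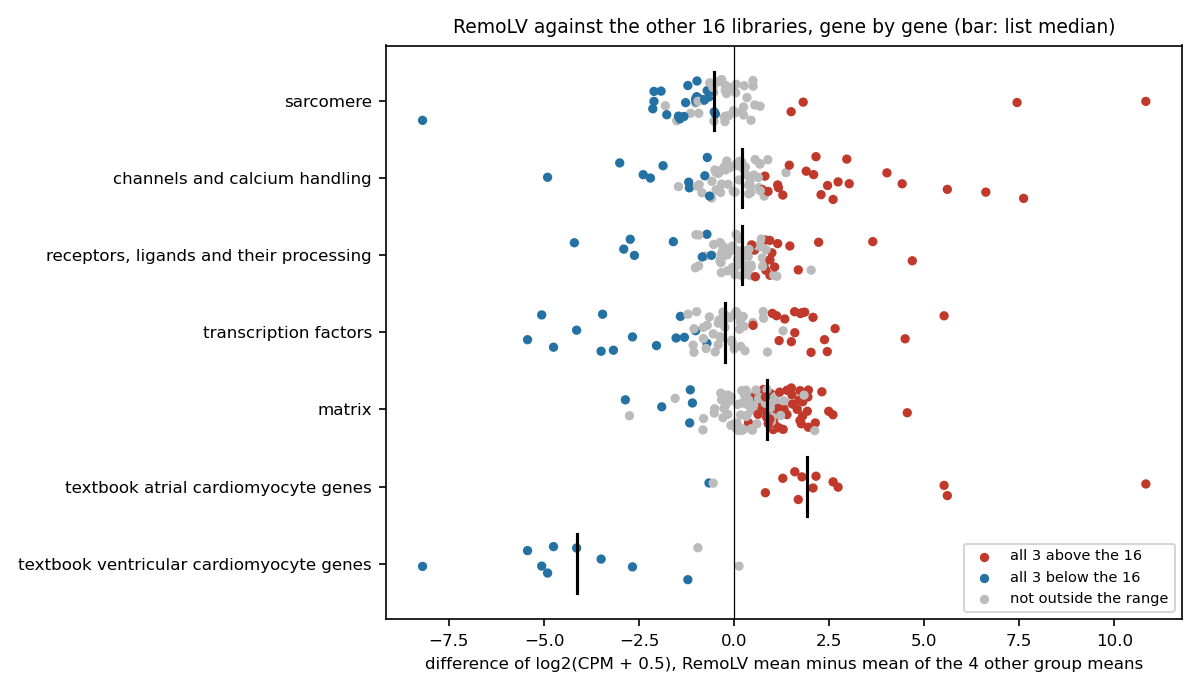
Difference of log2(CPM + 0.5), RemoLV minus the mean of the 4 other group means, for each kept gene of 7 lists, with red for genes whose 3 RemoLV libraries lie above the 16, blue for those below and grey for the rest, and a bar at the list median. The atrial and ventricular lists lie on opposite sides of 0 (medians 1.93 and -4.14), and the matrix list is shifted to the right (median 0.85).

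Of 62 kept genes of the sarcomere list, 4 were above (6.45% beside 8.18% of all genes) and 23 below (37.1% beside 7.99%), and the median difference was -0.53. Most of the 23 lay close to the range: with a required gap of 1.5-fold, 3 genes were above and 5 below. At that gap 303 and 163 of all 13552 genes kept were above and below. Besides MYL4 and TNNI1, the 2 genes above were ACTC1, cardiac alpha-actin, and PALLD, the actin-bundling protein palladin. ACTC1 measured 9292, 9803 and 8862 CPM in RemoLV, and 1056, 3497 and 8117 CPM at the lowest, median and highest of the 16. The other alpha-actin of striated muscle, ACTA1, went the opposite way, with 1835, 3676 and 3332 CPM in RemoLV and 8628 to 16550 CPM in the 16. Counts of 1 alpha-actin can include reads of the other, since the sequences are nearly the same. PALLD measured 340, 367 and 449 CPM in RemoLV and at most 154 CPM in the 16.

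Of the sarcomere genes below the range, XIRP1, an actin-binding protein of the intercalated disc, measured 155, 264 and 238 CPM in RemoLV and 480 to 6480 CPM in the 16, where DOX1 gave the highest value. ANKRD1, a repeat protein that shuttles between titin and the nucleus, measured 811, 1503 and 1420 CPM beside 2251 to 7365 CPM. Both were named because each RemoLV library lay below every other library. Its relative ANKRD2 had at most 0.141 CPM in RemoLV, at or under 3 counts, and 0.481 to 13.4 CPM in the 16. TRIM54, a ubiquitin ligase of the M-band, measured 54.6, 67.6 and 46.9 CPM in RemoLV and 97.7 to 360 CPM in the 16. MYL3 measured 2649, 3028 and 2056 CPM in RemoLV and 4458 to 7836 CPM in the 16, a 2.32-fold difference from the balanced mean.

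The thick filament gene with the symbol MYH6, the alpha isoform of cardiac myosin heavy chain that is named for the atria, was lower in RemoLV, at 22330, 25970 and 22930 CPM against 28960 to 49790 CPM. This value is uncertain, because the identifier with this symbol had no matching position in RefSeq, MYH7 matched no symbol here, and the 2 genes are near-identical neighbours between which reads can be split. Whether this identifier counts MYH6 or the ventricular MYH7 was not settled here. Among genes of both chambers, TNNC1, cardiac troponin C, measured 2317, 2951 and 2768 CPM in RemoLV and 4315 to 7057 CPM in the 16, whereas TNNT2, cardiac troponin T, measured 6850, 7466 and 7297 CPM and overlapped the lowest of the 16 at 7368 CPM. MYH8, the perinatal skeletal myosin heavy chain, was picked out after its values were seen: it varied 24.8-fold among the 3 RemoLV libraries, the widest spread of any gene above with at least 5 CPM.

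Among ion channels and calcium-handling genes, 21 of 80 lay above the range (26.2% beside 8.18%) and 10 below (12.5% beside 7.99%), and 5 of the 21 passed the filter only through RemoLV. KCNK3, the acid-sensitive background potassium channel TASK-1, measured 78.1, 47.9 and 69.8 CPM in RemoLV and at most 0.998 CPM in the 16. Channel subunits of the acetylcholine-activated atrial potassium current were both higher. KCNJ5 measured 818, 985 and 807 CPM in RemoLV beside 27.9 to 357 CPM, and KCNJ3 measured 201, 169 and 155 CPM beside 56.1 to 118 CPM. CHRM2, the muscarinic receptor that opens this channel, measured 98.4, 112 and 91.8 CPM in RemoLV and 43.8 to 74.9 CPM in the 16, a 1.75-fold difference. All 3 genes of this pathway thus lay above the range, by margins that differed from gene to gene.

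Sarcolipin (SLN), the small inhibitor of the sarcoplasmic calcium pump, measured 91.8, 43.7 and 50.7 CPM in RemoLV and at most 2.82 CPM in the 16. GJA5, the gap junction protein connexin 40 of atria and conduction tissue, measured 130, 62.6 and 119 CPM beside 9.5 to 25.2 CPM. Both lay above the range, which by its definition leaves no overlap between the groups. The calcium channel subunits CACNA2D2 (9.14, 14.5 and 28.7 CPM beside at most 0.678 CPM) and CACNA2D3 (39.7, 36.2 and 30.02 CPM beside at most 8.98 CPM) were also above. ABCC8, the sulfonylurea receptor of ATP-sensitive potassium channels, reached 8.29 to 13.9 CPM in RemoLV beside at most 2.31 CPM, and the pore-forming L-type channel CACNA1D reached 1.52 to 4.54 CPM beside at most 0.494 CPM.

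The channel list also had members below the range. KCNJ2, the inward rectifier Kir2.1, measured 3.8, 5.3 and 1.69 CPM in RemoLV and 59.9, 125 and 158 CPM at the lowest, median and highest of the 16, a 33-fold difference of means. KCNJ4, another inward rectifier, measured 43.5, 44.1 and 47.6 CPM in RemoLV beside 120 to 433 CPM, whereas their relative KCNJ12 was above the range at 4.92, 6.82 and 4.81 CPM beside at most 1.47 CPM. KCNIP2, the beta subunit of the transient outward current, measured 47.1, 29.1 and 28.2 CPM beside 167 to 433 CPM. These 4 lay outside the range, so by that rule none overlapped between the groups. FGF13, an intracellular regulator of sodium channels, lay at 5.26 to 5.64 CPM in RemoLV and 19.0 to 39.9 CPM in the 16. KCNE1, the beta subunit of the slow delayed rectifier, lay at 10.3 to 25.9 CPM beside 43.9 to 84.3 CPM. ATP2B4, a calcium pump of the cell membrane, lay at 43.6 to 52.7 CPM beside 79.1 to 168 CPM.

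Of 80 kept receptor, ligand and processing genes, 18 lay above the range (22.5% beside 8.18% of all genes) and 8 below (10% beside 7.99%). The share below was thus close to that of all genes, and the median difference was 0.20. With a required gap of 1.5-fold, 4 were above and 4 below, beside 303 and 163 of all 13552 genes kept. All 3 alpha-1 adrenergic receptors were below. ADRA1B measured 3.24, 0.958 and 2.14 CPM in RemoLV and 7.0 to 38.8 CPM in the 16, and ADRA1D measured 1.13, 0.451 and 0.445 CPM beside 2.61 to 16.2 CPM. With ADRA1A at 1 count in 3 libraries, no subtype reached its lowest level in the 16. PTGER3, a prostaglandin E2 receptor, measured 3.94, 4.68 and 7.04 CPM beside 24.1 to 60.9 CPM. NPR3, the clearance receptor of natriuretic peptides, measured 21.0, 25.8 and 8.37 CPM beside 28.3 to 82.4 CPM, and GHR, the growth hormone receptor, 33.4 to 35.8 CPM beside 49.4 to 80.7 CPM.

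Above the range, DKK3, a secreted protein of the Dickkopf family, had the largest difference of the receptor and ligand list, with 893, 793 and 679 CPM in RemoLV and 11.3 to 97.0 CPM in the 16. PAM, the enzyme that amidates peptide hormones and is abundant in atrial granules, measured 3418, 2203 and 2097 CPM beside 595 to 1108 CPM. FURIN, a protease that cleaves prohormones, measured 194, 168 and 181 CPM beside at most 159 CPM. All 3 were named as genes above the range, so each RemoLV library exceeded all of the 16 by that choice. CNTFR, a receptor subunit for ciliary neurotrophic factor, measured 16.03, 11.2 and 34.5 CPM beside at most 3.36 CPM. ERBB4, a neuregulin receptor, measured 9.92, 10.1 and 6.41 CPM beside at most 4.05 CPM. NOTCH2 (54.2 to 69.0 CPM beside at most 40.2 CPM), FGFR1 (170 to 194 beside at most 132 CPM) and PDGFRA (26.6 to 27.8 beside at most 24.8 CPM), receptors that connective tissue cells also carry, were above by smaller margins.

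The transcription factor list split in both directions. Of 74 genes, 18 lay above (24.3% beside 8.18% of all genes) and 15 below (20.3% beside 7.99%). Of the 18, 5 were kept only through RemoLV and so had to lie high there. Among the 69 genes also kept without RemoLV, 13 lay above and 15 below. The median difference of the list was -0.23, or -0.17 with genes at or under the floor of 3 counts set to that floor. TBX5 measured 101, 105 and 117 CPM in RemoLV beside 20.4 to 40.9 CPM. NR2F2 measured 70.0, 53.1 and 64.4 CPM beside 15.6 to 25.5 CPM, and its paralogue NR2F1 measured 13.2, 10.3 and 4.28 CPM beside at most 2.71 CPM. Per kilobase of exon NR2F2 was the higher of these paralogues in both sets, at 12.6 to 16.6 against 1.1 to 3.39 CPM per kb in RemoLV. All 3 factors were thus above the range.

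SHOX2, a factor of the sinus node and the veins draining into the atria, measured 31.7, 37.3 and 70.7 CPM in RemoLV and at most 2.55 CPM in the 16. ETV1, known from fast-conducting atrial muscle, measured 96.9, 105 and 93.8 CPM beside 9.87 to 40.8 CPM. MEIS1 measured 21.7, 22.6 and 31.6 CPM beside at most 14.0 CPM, whereas its relative MEIS2 was below the range at 24.2, 29.8 and 27.6 CPM beside 37.9 to 92.5 CPM. PRRX1, a mesenchymal factor, measured 64.2, 48.0 and 48.7 CPM beside at most 16.4 CPM. HOXB3 (2.85 to 3.38 CPM beside at most 0.779 CPM) and PRDM6 (1.6 to 3.31 CPM beside at most 0.811 CPM) were low in every library.

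Ventricular factors were low in RemoLV, and IRX4 and IRX5 did not exceed 3 counts. IRX4 had 2, 0 and 2 counts there (0.141, 0 and 0.178 CPM) and 8.38, 21.4 and 27.7 CPM at the lowest, median and highest of the 16. IRX5 had at most 0.178 CPM in RemoLV and 2.69 to 24.7 CPM in the 16. IRX3 measured 1.06, 1.07 and 0.356 CPM beside 36.4 to 88.4 CPM. HAND1, a factor of the left ventricular wall, measured 0.633, 0.113 and 0 CPM beside 17.5 to 32.9 CPM. HEY2, a Notch-responsive repressor of the compact ventricular wall, measured 3.02, 2.54 and 4.99 CPM beside 46.5 to 121 CPM, and its atrial relative HEY1 overlapped the 16 at 7.74 to 12.3 CPM. The gap was wide for all of these factors except HEY1. PRDM16 reached 1.34 CPM in RemoLV and 2.47 to 16.4 CPM in the 16. WT1, a factor of the epicardium and of vessels, reached 1.83 CPM beside 6.42 to 28.2 CPM. GATA4 and NKX2-5, factors of all heart muscle, were within the range at 103 to 106 CPM and 67.2 to 68.2 CPM.

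Matrix genes made the largest group above the range, 47 of 125 kept genes (37.6% beside 8.18% of all genes), with 5 below (4% beside 7.99%) and a median difference of 0.85. With a required gap of 1.5-fold, 13 were above and 3 below, beside 303 and 163 of all 13552 genes kept. At that gap 12 of 80 channel genes were above. ELN, elastin, measured 1228, 2259 and 1917 CPM in RemoLV and 25.2, 97.9 and 212 CPM at the lowest, median and highest of the 16, and its RemoLV mean was 1801 ± 525 CPM (SD, n = 3), 20.1 times the balanced mean. LTBP2, a microfibril-associated protein, measured 46.8, 67.9 and 74.7 CPM beside at most 26.5 CPM, MFAP4 measured 235, 186 and 203 CPM beside at most 105 CPM, and LOX, which cross-links elastin and collagen, measured 58.7, 69.0 and 81.6 CPM beside at most 28.2 CPM. MGP, matrix Gla protein, an inhibitor of calcification, measured 840, 835 and 1067 CPM beside 117 to 385 CPM.

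Fibrillar collagens were less separated than elastin. COL3A1 measured 6936, 5976 and 5959 CPM in RemoLV and 666 to 3416 CPM in the 16, whereas the lowest COL1A1 value in RemoLV, 1833 CPM, was just under the highest of the 16, 1839 CPM, so COL1A1 was not counted. COL27A1 measured 30.7, 39.0 and 24.6 CPM beside at most 13.8 CPM. ITGBL1 measured 54.5, 40.5 and 68.8 CPM beside at most 35.8 CPM, and SPP1, osteopontin, was uneven at 30.1, 6.59 and 7.22 CPM beside at most 4.99 CPM. Of the 5 matrix genes below the range, HAPLN3, a link protein of hyaluronan, had the largest difference, with 17.8, 16.2 and 8.73 CPM beside 79.3 to 160 CPM. CCN1, an immediate-early matrix protein, was close to the edge at 12.5, 30.5 and 26.1 CPM beside 32.3 to 949 CPM, the last in DOX1. LAMA5 (97.2 to 156 CPM beside at least 183 CPM), ASPN (47.5 to 54.3 CPM beside at least 84.4 CPM) and ITGA5 (183 to 217 CPM beside at least 327 CPM) completed the 5.

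**Figure D3:**
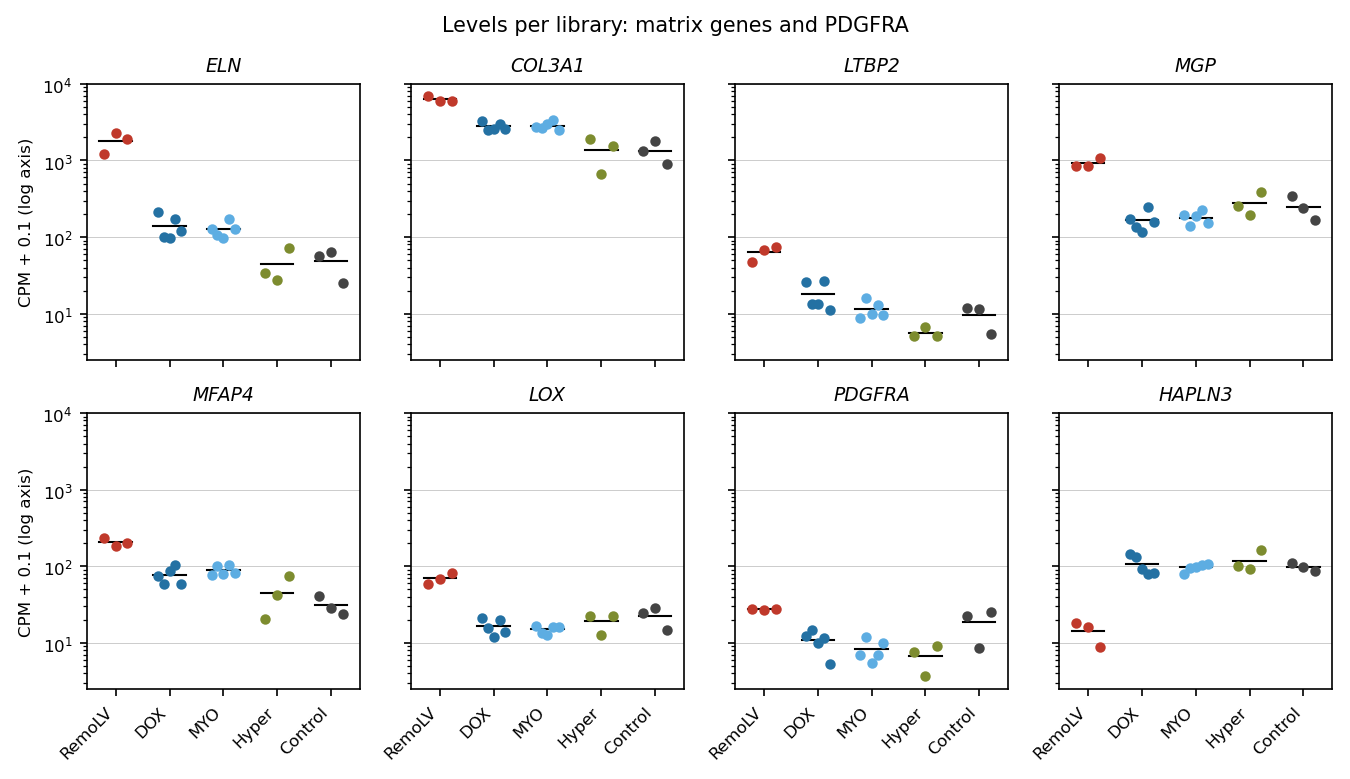
CPM + 0.1 per library on a log axis for 6 matrix genes and the fibroblast receptor PDGFRA above the range, and for HAPLN3 below it, with 1 point per library and a bar at the group mean. ELN is separated most, at 1228 to 2259 CPM in RemoLV against at most 212 CPM, and PDGFRA least, at 26.6 to 27.8 CPM against at most 24.8 CPM.

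Markers of some other cell types also moved with the RemoLV libraries, and their part in the matrix and receptor results was not tested. Each share here is read beside the 8.18% of all genes above the range and the 7.99% below it. Genes kept only through RemoLV had to lie high there. Of 12 fibroblast markers, most of which are also in the matrix list, 9 lay above the range (75%) and 0 below. Their summed level was 13530 to 15530 CPM in RemoLV and 2511 to 8998 CPM in the 16, most of it from COL3A1, COL1A1, COL1A2 and GSN. Both LUM and TCF21, an early fibroblast factor, were inside the range. Of 11 nodal and conduction markers, 6 lay above (54.5%), 3 of them kept only through RemoLV, and 0 below, with summed levels of 207.5 to 308.9 CPM beside 51.2 to 94.9 CPM. Their median difference was 1.9, or 1.4 with genes under the floor set to 3 counts. Of these, the pacemaker channel HCN4 measured 2.46, 1.13 and 0.891 CPM, and the nodal factor TBX3 was inside the range. Of 7 adipocyte markers, 3 lay above (42.9%) and 1 below (14.3%), with ADIPOQ at 55.2, 77.4 and 10.9 CPM in RemoLV and at most 22.3 CPM in the 16, and LEP and RETN at or near 0. Of 6 neuronal and Schwann cell markers, 3 lay above (50%), 1 of them kept only through RemoLV, and the summed level was 31.0 to 61.3 CPM beside 9.79 to 18.9 CPM.

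The remaining lists were short, and counts of 0 or 1 in them say little beside 8.18% of all genes above the range and 7.99% below it. Of 10 smooth muscle markers and 10 blood and immune markers, 0 lay outside the range. Of 11 endothelial and endocardial markers 1 lay above (CDH11) and 1 below (NPR3), 9.09% each and near the shares of all genes. Summed smooth muscle markers were 6052 to 6513 CPM in RemoLV and 3567 to 6188 CPM in the 16, with 2 of the 3 RemoLV sums over the highest of the 16, and summed blood markers 116 to 162 CPM beside 128 to 549 CPM. Of 5 epicardial and mesothelial markers only WT1 was outside, below the range, and of 3 skeletal muscle markers only CKM, the muscle creatine kinase, which heart muscle also uses, at 2687, 3200 and 1712 CPM beside 4014 to 10630 CPM. Summed skeletal muscle markers, mostly CKM, did not overlap, at 1965 to 3621 CPM in RemoLV and 4419 to 11290 CPM in the 16. The fast skeletal troponin TNNT3 had 0 counts in all 3 RemoLV libraries.

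Over the whole genome, the 10 genes with the widest gap above the range included MYL4, KCNK3, SH3GL2, TNNI1, CHGA, CIB4, MCTP2, TMEM61 and LOC110261667. SH3GL2, endophilin A1 of synaptic vesicle recycling, measured 19.5, 14.9 and 17.5 CPM in RemoLV and at most 0.0848 CPM in the 16, where no library exceeded 3 counts. CHGA, chromogranin A of secretory granules, measured 86, 49.6 and 49 CPM beside at most 1.74 CPM. CIB4 measured 40.3, 32.1 and 24.3 CPM beside at most 0.686 CPM and is the next kept gene beside KCNK3 on chromosome 3, 56496 bases away. MCTP2 (40.6 to 62.4 CPM), TMEM61 (34.2 to 44.7 CPM) and LOC110261667 (17.6 to 21.9 CPM) each had at most 1.48 CPM in the 16. Of 11787 pairs of neighbouring genes, 1.04% were both above and 0.933% both below, and single genes above made up 8.29% of the genes placed.

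Below the range the 10 widest gaps belonged to MYL2, IRX3, DAPL1, HAND1, IRX4, CCDC112, LOC110255329, KCNJ2, PCP4 and HEY2. PCP4, a small regulator of calmodulin, measured 4.22, 13.1 and 3.92 CPM in RemoLV and 140 to 567 CPM in the 16. DAPL1 had at most 0.492 CPM in RemoLV and 18.3 to 33.4 CPM in the 16. CCDC112 measured 0.985, 1.07 and 1.07 CPM beside 19.6 to 70.2 CPM, and LOC110255329 1.55, 0.226 and 1.16 CPM beside 25.5 to 168 CPM. Of these 10 genes, 6 are on the textbook ventricular list, which holds 11 of the 13552 genes kept. That list was written with earlier results of these data known, and MYL2 among the 6 chose the libraries. The count is therefore no independent support for the name atrial-like.

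The 3 RemoLV libraries were alike for most members. Among 851 genes above with a mean of at least 5 CPM in RemoLV, the highest library exceeded the lowest by a median of 1.24-fold, and 22 genes spread over more than 3-fold. Among 954 genes below, the median was 1.19-fold and 5 genes spread over more than 3-fold, MYL2 among them at 6.21-fold, and among 8266 genes inside the range the median was 1.21-fold. Members near the edge of the rule were separated by very little. Just inside, COL5A2 had a lowest RemoLV value of 305 CPM beside a highest value of 303 CPM in the 16, and BMPR1A 36.0 beside 35.8 CPM. Just outside were COL1A1, given above, and TIMP2, with 194.5 beside 195.6 CPM. On the low side MEF2C (highest 75.1 beside lowest 76.7 CPM) was just inside, and IRX1 and IRX2, at 0 in RemoLV and at 0 in at least 1 of the 16, just outside. The rule favours genes that vary little among the 16.

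Without the RemoLV libraries, DOX and MYO together were tested against Hyper and Control together within the 16. It asks whether members also differ among libraries with a ventricular light chain, and treatment, follow-up time and study of origin cannot be told apart in it. By edgeR's quasi-likelihood test with Benjamini-Hochberg adjustment, 3379 of 13282 genes were higher with the anthracyclines (25.4%) and 3277 lower (24.7%). Of 972 tested genes above the RemoLV range, 311 were higher (32%) and 70 lower (7.2%), and of 1083 genes below it, 102 were higher (9.42%) and 393 lower (36.3%). The range of the 16 entered the choice of these genes, so the shares are a description. By role, 66 of 124 matrix genes were higher and 9 lower, 10 of 62 sarcomere genes higher and 21 lower, 22 of 73 channel genes higher and 14 lower, 29 of 80 receptor genes higher and 14 lower, and 27 of 69 transcription factors higher and 16 lower. With Hyper alone as reference, the counts fell over all 13282 genes, to 2016 higher and 2172 lower, and in every role list. The sarcomere list then had 6 higher and 9 lower, channels 10 and 8, receptors 19 and 9 and transcription factors 17 and 10, while 53 matrix genes were higher and 6 lower. The replicate number as a block gave 13 of 62 sarcomere genes lower, beside 2725 of all 13282 genes.

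MYL4, which marks the RemoLV libraries, was itself higher in the anthracycline groups at a far lower level, with 9.1 ± 3.49 CPM in DOX and 9.86 ± 7.31 CPM in MYO (SD, n = 5 each) against 1.02 ± 0.498 CPM in Hyper and 1.9 ± 1.26 CPM in Control (SD, n = 3 each). Its log2 fold change was 2.76 ± 0.48 (SE, edgeR adjusted p = 0.000205). MYL2 was lower by a log2 fold change of -0.54 ± 0.10 (edgeR adjusted p = 0.000319), with 10430 to 11480 CPM as means of DOX and MYO and 15840 to 15890 CPM in Control and Hyper. TNNI1 rose by 2.47 ± 0.70 (edgeR adjusted p = 0.00783), but with Hyper alone as reference by 1.29 (adjusted p = 0.236) and without Hyper replicate 3 by 3.92. ADRA1A did not pass (-0.33 ± 0.36, edgeR adjusted p = 0.465), nor did SLN, KCNJ5, NR2F2, TBX5, PAM, KCNJ2 or HEY2.

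Of the 47 matrix genes above the range in RemoLV, 29 were higher in the anthracycline groups and 2 lower, where 25.4% of all genes tested were higher and 24.7% lower. Most fibroblast markers, COL1A1, COL1A2, COL3A1 and DCN among them, are also in the matrix list, so these lists are not separate. Of 12 fibroblast markers, 5 were higher and 0 lower. Their summed levels were 6191 to 8998 CPM in DOX and MYO beside 2511 to 4906 CPM in Hyper and Control, which did not overlap. Their part in the matrix values was not tested. ELN rose by 1.52 ± 0.26 (edgeR adjusted p = 0.00019), MFAP2, a microfibril protein, by 1.98 ± 0.18 (edgeR adjusted p = 4.01e-07), LTBP2 by 0.99 ± 0.23 (edgeR adjusted p = 0.00234) and COL3A1 by 1.06 ± 0.19 (edgeR adjusted p = 0.000274). MFAP4 rose by 1.14 ± 0.22 (edgeR adjusted p = 0.000578) and COL27A1 by 0.80 ± 0.16 (edgeR adjusted p = 0.000724), whereas LOX did not pass (-0.39 ± 0.17, edgeR adjusted p = 0.0608). The potassium channel KCNK6 rose by 2.38 ± 0.28 (edgeR adjusted p = 7.49e-06). DKK3 rose by 1.51 ± 0.34 (edgeR adjusted p = 0.00172), though with Hyper alone as reference its value was 0.86 (adjusted p = 0.138). MGP went the other way, at -0.62 ± 0.18 (edgeR adjusted p = 0.0112), and so did ERBB4, at -1.54 ± 0.32 (edgeR adjusted p = 0.000984). These 2 genes were above the range in RemoLV and lower in the anthracycline groups.

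Of 11 textbook ventricular genes, 5 were higher in the anthracycline groups and 1, MYL2, lower, beside 25.4% and 24.7% of all genes. Of 12 textbook atrial genes tested, 1 was higher and 1 lower. IRX4, nearly absent from RemoLV, rose in the anthracycline groups by 1.24 ± 0.11 (edgeR adjusted p = 4.61e-07), with 24.6 ± 2.97 CPM in DOX and 23.8 ± 3.5 CPM in MYO (SD, n = 5 each) against 9.47 ± 0.975 CPM in Hyper (SD, n = 3) and 9.25 to 13.1 CPM in the 3 Control libraries. IRX5 rose by 1.37 ± 0.43 (edgeR adjusted p = 0.0153) but did not pass with Hyper alone as reference (1.01, adjusted p = 0.175). HAND1 rose by 0.36 ± 0.10 (edgeR adjusted p = 0.0085) but did not pass with Hyper alone as reference (adjusted p = 0.0866). IRX3 rose by 0.51 ± 0.19 (edgeR adjusted p = 0.0355), a call lost with Hyper alone (adjusted p = 0.199) and without DOX replicate 3, 4 or 5, MYO replicate 3, 4 or 5, Hyper replicate 1 or 3, or Control replicate 2 or 3 (adjusted p = 0.0501 to 0.111). PRDM16 rose by 0.91 ± 0.23 (edgeR adjusted p = 0.00322), but by 0.38 with Hyper alone (adjusted p = 0.313). PCP4 fell by 0.99 ± 0.13 (edgeR adjusted p = 1.51e-05), ESRRG, a receptor that drives genes of oxidative metabolism, by 0.79 ± 0.10 (edgeR adjusted p = 1.51e-05), MEIS2 by 0.70 ± 0.11 (edgeR adjusted p = 0.000114) and TRIM54 by 0.76 ± 0.23 (edgeR adjusted p = 0.0123). MYOT, myotilin of the Z-disc, fell by 0.74 ± 0.17 (edgeR adjusted p = 0.00167), with -0.43 against Hyper alone (adjusted p = 0.13). By the names of the deposited table the Control libraries of this test would be RemoLV libraries, and against Hyper alone 2016 genes were higher and 2172 lower.

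**Figure D4:**
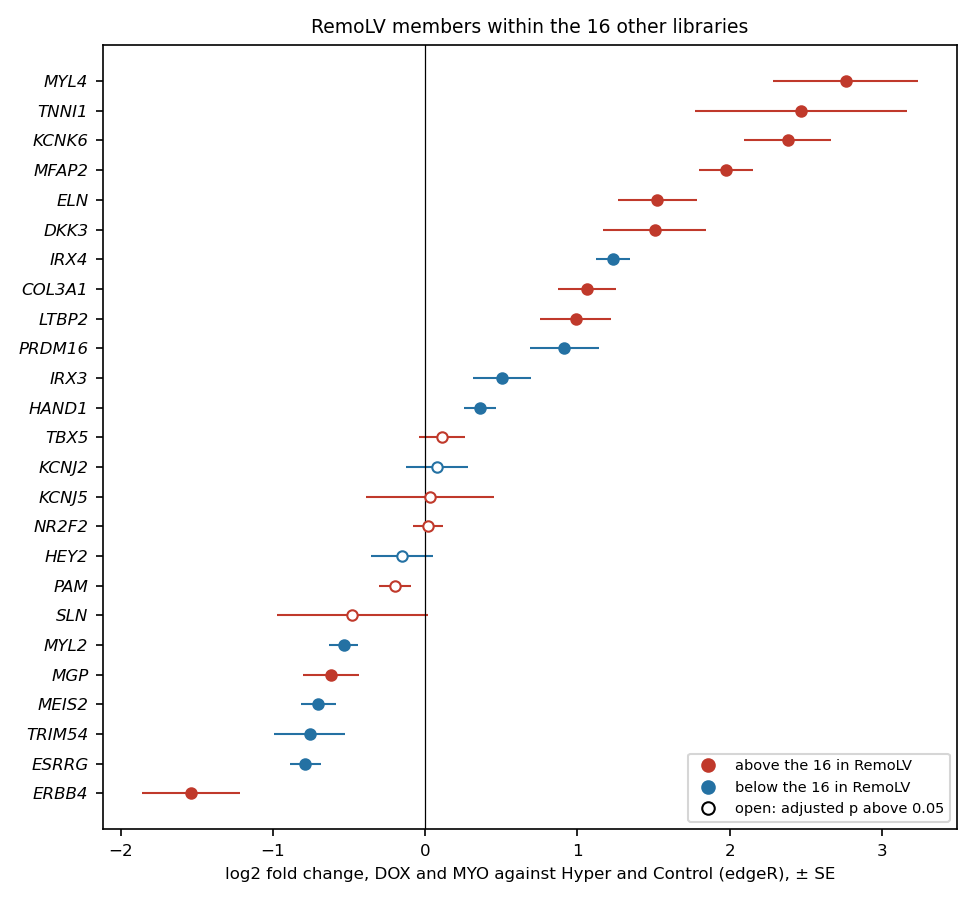
Log2 fold change of DOX and MYO against Hyper and Control, from edgeR and without the RemoLV libraries, for 25 genes that lie above (red) or below (blue) the range in RemoLV, with bars of 1 standard error and open symbols for an adjusted p above 0.05. MYL4 is farthest to the right at 2.76, and IRX4, blue, also lies to the right at 1.24, while MYL2 lies to the left at -0.54.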

How the data were processed

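LV samples of 19 pigs were sequenced. Per the submitters' processing notes, STAR was used to align the reads on the Sscrofa11.1 assembly and HTSeq 0.11.1 to count them over Ensembl genes, and the authors deposited the raw counts. They also deposited a table of 14744 genes whose expression columns hold log2 values, a transformation of the counts made by the authors, used here only to match library names. Its log2 fold change columns and adjusted p-value columns, which the authors made with DESeq2 against Control, were not used.

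Libraries were grouped by the titles of their count files. In R 4.3.3, counts were scaled by TMM in edgeR 4.0.16 and filtered by filterByExpr, which kept 13552 genes with all 19 libraries and 13282 without RemoLV. CPM was compared between RemoLV and the 16 by the range rule, without a test. Levels of the 16 are means of 4 group means. DOX and MYO were tested against Hyper and Control by quasi-likelihood F tests in edgeR, with p-values adjusted after Benjamini and Hochberg over all genes at a threshold of 0.05, with standard errors from that fit. P-values set the difference of groups against the spread between pigs within groups. They do not cover follow-up time or study of origin, which differ with treatment. DESeq2 1.42.0 served as an alternative. Tables were made with Python 3.11.15 and pandas 2.3.3.

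Symbols were found for 16046 of 25879 identifiers, 14856 from a gene name table and 1190 from the authors' table. Positions, exon lengths and the bases before gene starts came from RefSeq on Sscrofa11.1. The comparison, its members and the gene lists were chosen with earlier results of these data known. Named genes were the 4 markers, in each of 5 role lists up to 8 genes above and 6 below the range with the largest difference, all measured textbook chamber genes, the 10 widest gaps in each direction, 2 genes at each side of the threshold, and the 5 members of these lists with the largest called fold change in each direction within the 16. MYH8, COL3A1, NR4A1, NR4A3 and marker genes of other cell types were named after their values were seen. A few genes that this rule names, and 1 promoter window, are not reported here.

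Library totals were 9527710 to 20370209 counts, and no fold is given for genes whose libraries in a group all held at most 3 counts. Replicate numbers were checked for pairing: deviations of 20 same-numbered pairs had correlations from -0.255 to 0.25, with a median of 0.00115, and 4 exceeded 0.1. Among the 4 were the DOX and Control pairs numbered 1 (0.25), 2 (0.165) and 3 (0.118). Pairs of unlike number had a median of -0.00046, and the numbers were taken to pair nothing. Alternatives varied scaling, filters, the gap, the pseudocount, the weighting, the tool, the reference group and the libraries.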

Additional observations from a re-analysis of the deposited data

Results flagged for a closer look

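Only the DOX and MYO groups hold enough libraries for a check of single libraries that lie far from the rest of their group. Of 188 combinations of named gene and group, 22 had such a library by Dixon's criterion, where chance alone gives about 1 in 20, and 7 of the 22 were in DOX1. Another 3 were in DOX5 and 4 in MYO1, whose groups are exchanged in the deposited table of all samples, so the group these 2 libraries are set against is in doubt.

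In DOX1, XIRP1 stood at 6480 CPM (the other DOX libraries at 583 to 874 CPM), CCN1 at 949 CPM (others at most 198 CPM) and ITGA5 at 862.5 CPM (others at most 492 CPM). The genes above the RemoLV range KCNK3 (0.998 CPM), ABCC8 (2.31 CPM) and MEIS1 (9.05 CPM) were also highest there, whereas CHRM2 was lowest, at 48.5 CPM. In DOX3, MYL4 was low at 3.13 CPM (others at least 9.58 CPM). In DOX4, GJA5 was high at 18.9 CPM. DOX5 was high in ADRA1A at 18.1 CPM (others at most 5.37 CPM) and in KCNIP2 at 390.4 CPM, and low in TIMP2 at 89.5 CPM.

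In MYO1, MEIS1 was high at 6.1 CPM, ITGBL1 at 23.2 CPM, KCNJ3 at 79.7 CPM and CIB4 at 0.634 CPM. MYO3 was high in ESRRG at 45.2 CPM and in MEIS2 at 57.0 CPM, and low in PCP4 at 186 CPM. MYO4 was high in DAPL1 at 31.3 CPM. MYO5 was high in SPP1 at 3.55 CPM and in GJA1 at 508 CPM.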

How the results depend on the processing

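Scaling by DESeq2 size factors gave 1143 genes above and 1042 below, leaving the low-count filter out 1239 and 1092, and a mean of at least 1 CPM 952 and 1070. Scaling by total counts gave 454 genes below in all and 3 below among matrix genes, because it shifts the median of all genes. A required gap of 1.5-fold keeps fewer genes by construction: 303 above and 163 below in all, 12 and 5 of the channels, 4 and 4 of the receptors, 10 and 7 of the transcription factors, 13 and 3 of the matrix genes, and 3 and 5 of the sarcomere genes. Leaving out 1 library can only widen the rule and gave 1121 to 1389 above and 1095 to 1337 below. The differences of the 102 named genes kept their sign under 5 other weightings, scalings and pseudocounts, but moved by at least 1 SD of the 3 RemoLV libraries in 42 genes with total counts, 43 with a pseudocount of 2 CPM, 35 with 0.1 CPM, 11 with a mean over the 16 and 2 with DESeq2 size factors.

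Within the 16, DESeq2 called 3364 genes higher and 3460 lower, and leaving out 1 library gave 2759 to 3537 higher and 3025 to 3516 lower in edgeR. Hyper alone as reference gave 2016 higher and 2172 lower in all, with 6 and 9 sarcomere, 10 and 8 channel, 19 and 9 receptor and 17 and 10 transcription factor genes. The replicate block, for numbers taken to pair nothing, gave 2766 higher and 2725 lower in all and 13 sarcomere genes lower. Of 42 named genes called, 17 lost the call with Hyper alone, 7 with the replicate block, 1 without the filter, up to 6 without 1 library, and 0 with DESeq2, with RLE factors, or with DOX replicate 5 and MYO replicate 1 exchanged as in the deposited table, an alternative chosen after seeing the data. None changed sign, and the cause of the losses was not tested. Genes at 3 counts or fewer limit what can be said of low levels in RemoLV.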
